A study of Mus musculus with 6 samples.

Results

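The pyruvate dehydrogenase complex and the kinases that switch it off were examined in RAW 264.7 cells, a mouse macrophage-like line, treated with 15-HETE and stimulated with LPS. Of 10 genes listed for this system 7 were measured, among 13840 genes on the array that had a probe annotated with 1 symbol, and each of the 7 had a single such probe: the kinases Pdk1, Pdk2, Pdk3 and Pdk4, the E1 subunits Pdha1 and Pdhb, and the E3 subunit Dld. Dlat, Pdp1 and Mpc1 were not matched to a probe and were not analysed here. The rule for choosing members took the brightest probe of each gene over all 6 samples, but with 1 probe per measured gene it made no choice. The genes themselves were chosen by name with earlier results of these arrays known, so their changes are not independent of that choice. The 15-HETE + LPS cells received 40 μM of 15(S)-HETE, a hydroxylated product of arachidonic acid, and then 1 μg/mL LPS, a bacterial endotoxin that activates macrophages. The LPS cells received the same LPS alone, so all samples were LPS-stimulated and no unstimulated cells were analysed here. Total RNA was taken at 24 h from 3 biological replicates per group, each pooled from 6 wells, and hybridised to mouse genome survey arrays with 1 chemiluminescent signal per probe. Intensities are linear and quantile normalised by the authors, with a median of 837 on every array.

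The complex sits in the mitochondrial matrix and converts pyruvate, the end product of glycolysis, to acetyl-CoA for the citric acid cycle and for lipid synthesis. Its E1 component (Pdha1 and Pdhb) decarboxylates pyruvate with thiamine diphosphate, E2 (Dlat) passes the acetyl group to coenzyme A on a lipoyl arm, and E3 (Dld) reoxidises that arm. The kinases Pdk1 to Pdk4 phosphorylate Pdha1 and so inactivate the complex, the phosphatase Pdp1 reverses this, and Mpc1 is part of the carrier that brings pyruvate into mitochondria. Pdk1 is known as a target of the hypoxia factor HIF-1, and Pdk4 as a target of the fatty acid-sensing PPARs and of FOXO factors in muscle and liver. In macrophages the complex is known for linking the glycolysis that LPS induces to the acetyl-CoA used in lipid synthesis.

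Of these genes, Pdk4 alone passed the test after 15-HETE, and it was lower. The sequences before the start sites of Pdk4 and of Pdk1, the kinase whose mean moved least, are shown here because the results turn on how differently the 2 kinases behaved. They come from RefSeq (GRCm38.p6), run 5′ to 3′ on the strand of the gene and end at the base before the start site. Capitals mark a CCAAT box in reverse orientation in Pdk4 (at chr6:5496279-5496528, minus strand) and a GC box in Pdk1 (at chr2:71872974-71873223, plus strand, 1 of its 2 listed starts).
Pdk4: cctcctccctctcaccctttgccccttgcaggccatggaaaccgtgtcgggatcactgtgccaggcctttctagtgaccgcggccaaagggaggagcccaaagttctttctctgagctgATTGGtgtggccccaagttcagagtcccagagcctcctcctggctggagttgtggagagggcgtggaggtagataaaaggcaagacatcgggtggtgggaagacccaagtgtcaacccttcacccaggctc
Pdk1: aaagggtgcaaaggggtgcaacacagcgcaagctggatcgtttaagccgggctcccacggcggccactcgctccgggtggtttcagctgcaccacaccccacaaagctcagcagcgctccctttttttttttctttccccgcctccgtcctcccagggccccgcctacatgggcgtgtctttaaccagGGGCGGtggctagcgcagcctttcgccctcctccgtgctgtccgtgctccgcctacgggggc
Both strands were searched for 9 motifs in the 250 bases before each start. The CCAAT box (CCAAT) lay 131 to 127 bases before the Pdk4 start and is found in 33.8% of 32851 RefSeq windows of that length, and the GC box (GGGCGG) lay 62 to 57 bases before the Pdk1 start and is found in 32.7%. Neither window held the PPAR direct repeat of AGGTCA with 1 base between the copies (0.0335% of windows), a single AGGTCA (14% of windows), the ERR element TCAAGGTCA (0.387%), the hypoxia element core ACGTG (16.6%), the FOXO site GTAAACA (3.17%), the glucocorticoid element of AGAACA and TGTTCT with 3 bases between them (0.00913%) or the TATA box TATAAA (12.4%). The single AGGTCA overlaps the direct repeat and the ERR element, which contain it. These matches describe letters in a short window and say nothing of factors bound there or farther away. Windows were listed for 9 of the 10 genes.

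Pdk4, the kinase known to rise in fasting and to spare glucose, had intensities of 312, 227 and 266 in 15-HETE + LPS cells, against 1033, 1116 and 1013 in LPS cells. All 3 treated samples lay far below all 3 LPS samples, and the gap between the groups exceeded the spread within either. The mean was 268 ± 42.5 in 15-HETE + LPS cells and 1054 ± 54.6 in LPS cells (SD, n = 3 each). The log2 fold change (15-HETE + LPS minus LPS) was -1.99 (standard error 0.19, 95% interval -2.46 to -1.51), so Pdk4 was 3.96-fold lower after 15-HETE, with an adjusted p of 0.0327 from limma over all 33012 probes. Across the array 0.442% of probes were called lower and 0.509% higher at that threshold, and of the 7 genes 1 was lower and 0 were higher. In bulk RNA, fewer cells with a transcript and less of it per cell cannot be told apart.

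The probe was dim in 15-HETE + LPS cells. Its mean lay above 10.04% of probes in 15-HETE + LPS cells and above 54.82% in LPS cells, so the treated samples were well under the array median of 837. All 12 measured markers of other cell types had a higher treated mean (the lowest 8.16 on the log2 scale, against 8.05 for Pdk4). In LPS cells some of these markers lay above Pdk4 and others below it. The files give no detection call, and whether the transcript was detected in either group is unknown. Adding 100 to every intensity before taking logs gave a log2 fold change of -1.65 (adjusted p = 0.0208 from limma). With a prior variance that follows intensity (the intensity trend), the adjusted p was 0.0131. On the same values, the methods' t-test was run on all probes, without the paper's fold rule and filter. After adjustment over all probes it called 0 probes of the array and gave Pdk4 an adjusted p of 0.132. When any 1 of the 6 samples was left out, limma called 0 probes of the whole array, Pdk4 among them (adjusted p = 0.0677 to 0.184), while its log2 fold change ran only from -2.10 to -1.87. With the intensity trend Pdk4 was called in 4 of those 6 fits and lost in the fits that left out LPS replicate 2, with an adjusted p of 0.0588, or LPS replicate 3, with 0.0560.

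**Figure D1:**
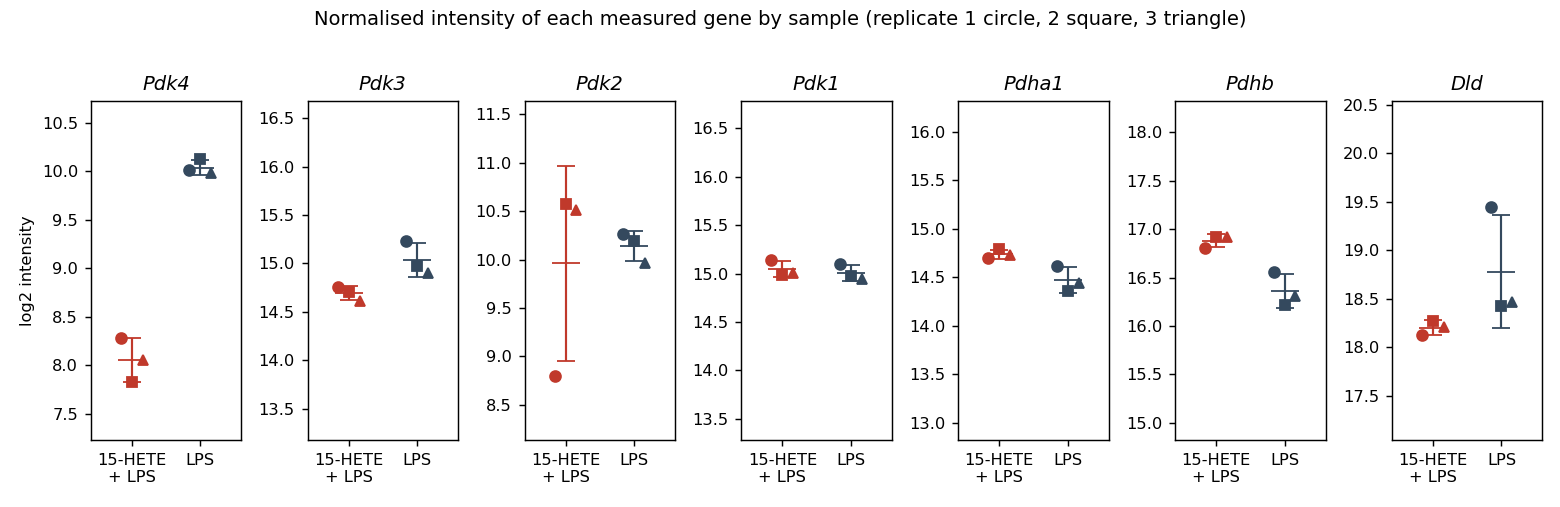
Log2 intensity of the 7 measured genes in each sample, 15-HETE + LPS on the left and LPS on the right of each panel, with the group mean and SD as bars. Every panel spans the same log2 range at its own level. The Pdk4 samples fell into separate groups (7.82 to 8.28 after 15-HETE and 9.98 to 10.12 in LPS cells), a single treated sample of Pdk2 lay far below the others, and a single LPS sample of Dld far above.

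The other kinases did not pass. Pdk1 had intensities of 36014, 32493 and 33012 in 15-HETE + LPS cells, against 35131, 32089 and 31473 in LPS cells. The samples of the groups were interleaved, and the log2 fold change was 0.04 (standard error 0.17, 95% interval -0.37 to 0.45, adjusted p = 0.916 from limma). Pdk3, an isoform encoded on the X chromosome, had 27733, 26767 and 25091 in 15-HETE + LPS cells, against 38510, 32173 and 30615 in LPS cells. Each treated sample was below each LPS sample, yet the log2 fold change of -0.34 (95% interval -0.78 to 0.10) had an adjusted p of 0.359 from limma, and it ran from -0.41 to -0.24 with 1 sample left out.

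Pdk2, a widely expressed isoform, had 447, 1519 and 1459 in 15-HETE + LPS cells, against 1228, 1168 and 999.9 in LPS cells. Replicate 1 of the treated cells was the lowest of all 6 samples and the other treated samples were the highest. The log2 fold change was -0.18 with a wide interval (-1.38 to 1.03, adjusted p = 0.874 from limma), and without that treated replicate 1 it was 0.40 (adjusted p = 0.404). The data thus left the direction of Pdk2 unsettled. Any change of Pdk1 was bounded much more closely than that of Pdk2.

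**Figure D2:**
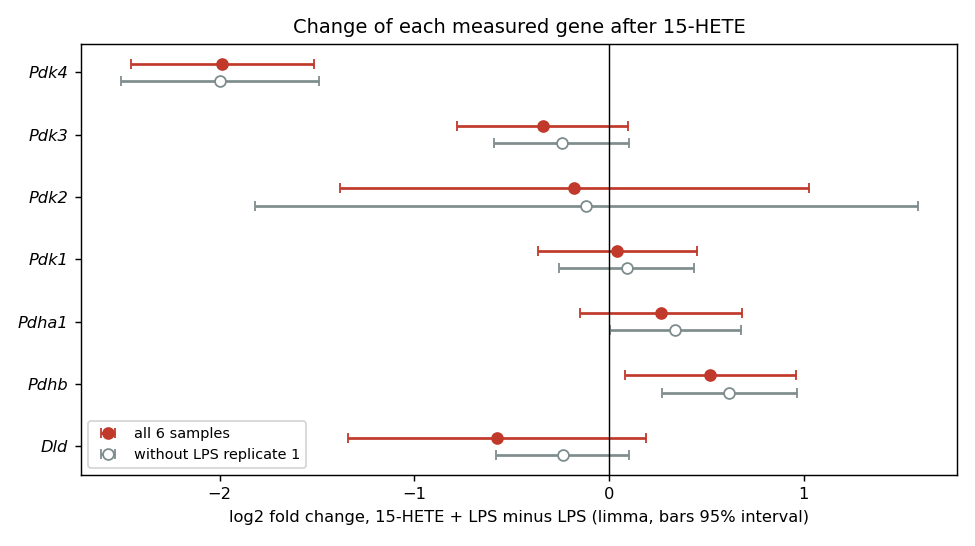
Log2 fold change of each measured gene, 15-HETE + LPS minus LPS, from limma with 95% intervals, with all 6 samples (filled) and without LPS replicate 1 (open). The interval of Pdk4 (-2.46 to -1.51) lay clear of every other gene's estimate, and the estimate for Dld moved from -0.58 with all samples to -0.24 without that replicate.

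Within a sample, the log2 difference between a kinase and Pdha1, the subunit it phosphorylates, cancels any scale of the whole array. Levels of different probes are not comparable, so only the change of this difference between the groups was read. The change was -2.25 on the log2 scale for Pdk4, -0.61 for Pdk3 and -0.23 for Pdk1, with no overlap between 15-HETE + LPS and LPS samples in these 3, and -0.44 for Pdk2, where samples overlapped. The log2 fold change of Pdk1 alone was 0.04 and that of Pdha1, which was not called, 0.27. The value for Pdk1 therefore mostly reflects Pdha1, and the same Pdha1 term enters the values of the other kinases. Set against its fellow kinases in the same way, Pdk4 changed by -2.03 relative to Pdk1, by -1.81 relative to Pdk2 and by -1.64 relative to Pdk3, again with no overlap. Of these 7 comparisons 6 had an exact permutation p of 0.1 (two-sided; adjusted over the 7, 0.117), the smallest that 3 samples against 3 allow, and Pdk2 against Pdha1 had 0.8. Each of the 7 contains Pdk4 or Pdha1, so they are not separate tests. Where Pdk4 enters, its own gap between the groups largely sets the outcome, though less so against Pdk2. There the treated samples had -0.52, -2.74 and -2.46, and the LPS samples -0.25, -0.07 and 0.02. The low Pdk2 value of treated replicate 1 left that sample only just below the LPS samples. Of single probes 30.0% did not overlap between the groups, and the share among pairs of probes was not computed. These differences carry the limit of the dim treated Pdk4 probe given above, so their size is uncertain where Pdk4 enters.

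The E1 subunits lay slightly higher after 15-HETE in every treated sample without passing the test. Pdhb, the beta subunit of E1, had intensities of 114192, 124029 and 124143 in 15-HETE + LPS cells, against 96136, 76382 and 81154 in LPS cells. Its log2 fold change was 0.52 (standard error 0.18, 95% interval 0.08 to 0.96, adjusted p = 0.192 from limma), and with the intensity trend it was called higher (adjusted p = 0.0334), when 3.87% of probes were called higher and 4.96% lower. Pdha1, the alpha subunit that carries the regulatory phosphorylation sites, had 26590, 28366 and 27079 in 15-HETE + LPS cells, against 25120, 21002 and 22256 in LPS cells. This is a log2 fold change of 0.27 (95% interval -0.15 to 0.68, adjusted p = 0.442 from limma), and 0.215 was the adjusted p with the intensity trend.

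Dld, the dihydrolipoamide dehydrogenase that this complex shares with other 2-oxoacid dehydrogenases and the glycine cleavage system, was the brightest probe of the 7. It had 285755, 316654 and 302973 in 15-HETE + LPS cells, against 715734, 350992 and 361006 in LPS cells. All treated samples were below all LPS samples, but LPS replicate 1 stood nearly 1 log2 unit (0.99) above the next LPS sample. The log2 fold change was -0.58 with all samples (95% interval -1.34 to 0.19, adjusted p = 0.372 from limma). Leaving out that LPS sample brought it to -0.24 (adjusted p = 0.386).

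LPS replicate 1 had the highest LPS value in 6 of the 7 genes, Pdk4 being the exception. The share of all probes that were highest in that sample was not computed, so the count is not read as a trait of these genes. The smaller changes were the ones that moved without LPS replicate 1. Without it the log2 fold change of Pdk4 was -2.00. With the intensity trend and without LPS replicate 1, when 2595 probes of the array were called higher and 2540 lower against 1279 and 1638 with all samples, Pdhb (0.62, adjusted p = 0.00022) and Pdha1 (0.34, adjusted p = 0.0136) were called higher and Dld (-0.24, adjusted p = 0.0279) was called lower beside Pdk4. The groups did not overlap for 5 of the 7 genes (2 higher, 3 lower), read against 30.0% of all probes (13.7% higher, 16.3% lower). At an unadjusted p under 0.05, Pdhb was higher and Pdk4 lower, against 8.62% of probes higher and 11.0% lower. The median log2 fold change of the 7 was -0.18, against 0.0073 for all probes. That median moved to -0.0047 without treated replicate 1 and to -0.35 without treated replicate 2.

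Further genes of the complex and its cofactors did not pass the test. Of 5 other complex and carrier genes 3 were measured, and 0 were called in either direction, with 1 at an unadjusted p under 0.05. That gene was Pdhx, the E3-binding protein that anchors Dld in the complex, which had 2942, 3595 and 3414 in 15-HETE + LPS cells, against 2216, 2569 and 1913 in LPS cells. Its log2 fold change was 0.58 (adjusted p = 0.192 from limma), close to that of Pdhb. Pdpr, the regulatory subunit of the phosphatase, had -0.34 (-0.19 without treated replicate 1), and the testis form Pdha2 had -0.03, with a sign that turned when 1 sample was left out (-0.30 to 0.34). Of 15 genes of lipoylation and thiamine supply 8 were measured and 0 were called (1 at an unadjusted p under 0.05). Across the array 8.62% of probes were higher and 11.0% lower at that unadjusted p. The thiamine transporter Slc19a2, which delivers the vitamin of the E1 cofactor to the cell, had 3470, 4031 and 4355 in 15-HETE + LPS cells, against 2312, 1844 and 2213 in LPS cells. All treated samples were higher, with a log2 fold change of 0.90 (adjusted p = 0.0869 from limma, 0.0271 with the intensity trend). The iron-sulfur carrier Nfu1, needed to make the lipoyl group, had 0.44 (adjusted p = 0.389), or 0.21 without LPS replicate 1. Iba57, which also acts in iron-sulfur assembly, had -0.42 (adjusted p = 0.460), or -0.66 to -0.27 with 1 sample left out.

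The sister complexes and the citric acid cycle were also examined, since they share Dld or take up the acetyl-CoA. Of 12 genes of the sister complexes 8 were measured, 0 were called (0 higher and 3 lower at an unadjusted p under 0.05), and the median log2 fold change was -0.21. At that unadjusted p 8.62% of all probes were higher and 11.0% lower. Ogdh, the E1 of the 2-oxoglutarate dehydrogenase, had 40624, 35900 and 37823 in 15-HETE + LPS cells, against 68523, 59803 and 61380 in LPS cells. It was lower in every treated sample (log2 fold change -0.73, adjusted p = 0.101 from limma, 0.0058 with the intensity trend), opposite in sign to the E1 subunits of pyruvate dehydrogenase. The glycine decarboxylase Gldc (-0.89, adjusted p = 0.110) and its lipoyl carrier Gcsh (-1.56, adjusted p = 0.246) did not pass either, and Gldc was called with the intensity trend (adjusted p = 0.0166). Gcsh, dim after 15-HETE, ran from -2.23 without treated replicate 1 to -0.93 without treated replicate 3. Of 15 citric acid cycle enzymes 12 were measured and 0 were called, with 6 above and 6 below 0 and a median of 0.03. Idh2, the NADP-linked isocitrate dehydrogenase, had 0.81 (adjusted p = 0.0929, 0.0086 with the intensity trend), Suclg1, a subunit of succinyl-CoA synthetase, -0.29, and Sdha, of succinate dehydrogenase, -0.28 (-0.16 without LPS replicate 1).

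Among other routes of pyruvate and acetyl-CoA, the lactate transporters were the genes called. Of 14 genes of pyruvate use 10 were measured, with 1 called higher (Slc16a1, MCT1, log2 fold change 2.10, adjusted p = 0.0327 from limma) and 1 lower (Slc16a3, MCT4, -1.26, adjusted p = 0.0474). Across the array 0.509% of probes were called higher and 0.442% lower. Ldhb, the lactate dehydrogenase subunit of heart muscle, had 1023, 1015 and 977 in 15-HETE + LPS cells, against 3134, 1852 and 3563 in LPS cells. Each treated sample was lower, with a log2 fold change of -1.45 (adjusted p = 0.0724 from limma, 0.0196 with the intensity trend), while the main subunit of glycolytic cells, Ldha, had -0.14, or 0.04 without LPS replicate 1. The transporter chaperone Bsg had -0.58 (adjusted p = 0.159) and the alanine transaminase Gpt -0.20. Of 10 genes that supply or export acetyl-CoA 7 were measured and 0 were called (1 lower at an unadjusted p under 0.05, against 11.0% of all probes). Slc25a1, the citrate carrier that exports acetyl units for lipid synthesis, had -0.56 (adjusted p = 0.152, 0.0161 with the intensity trend), the acetyl-CoA synthetase Acss1 1.19 (adjusted p = 0.358) and the citrate lyase Acly 0.24. Acss1 was 0.45 without treated replicate 1, and Acly ran from 0.05 to 0.44 with 1 sample left out.

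Of the genes that respond to PPARs, as Pdk4 does in muscle and liver, those called were higher. Of 17 such genes of fat oxidation and lipid handling 13 were measured. Of these 2 were called higher and 0 lower, against 0.509% and 0.442% of all probes. Plin2, which coats lipid droplets, had 740622, 658705 and 710178 in 15-HETE + LPS cells, against 227730, 162110 and 152104 in LPS cells (log2 fold change 1.98, adjusted p = 0.0344 from limma). Slc25a20, which carries acylcarnitines into mitochondria, had 13976, 12655 and 12701 in 15-HETE + LPS cells, against 5453, 5176 and 4982 in LPS cells (1.33, adjusted p = 0.0406 from limma). Both were high in all treated samples, in the samples where Pdk4 was low. Cpt1a, which commits fatty acids to oxidation, had 1176, 1652 and 1184 in 15-HETE + LPS cells, against 338, 504 and 204 in LPS cells. All its treated samples were higher, by 2.02 on the log2 scale (adjusted p = 0.0655 from limma, 0.0232 with the intensity trend), and its LPS mean was dim, above 22.5% of probes. The fatty acid-binding protein Fabp4 (0.93, adjusted p = 0.0869) and the beta-oxidation subunit Hadha (1.03, adjusted p = 0.110) did not pass without that trend. In the list 11 of 13 genes had a positive log2 fold change and 2 a negative one, with a median of 0.40 against 0.0073 for all probes. The trend called 5 higher and 0 lower, against 3.87% and 4.96% of all probes. The list was chosen with earlier results of these samples known, so its direction is a description.

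**Figure D3:**
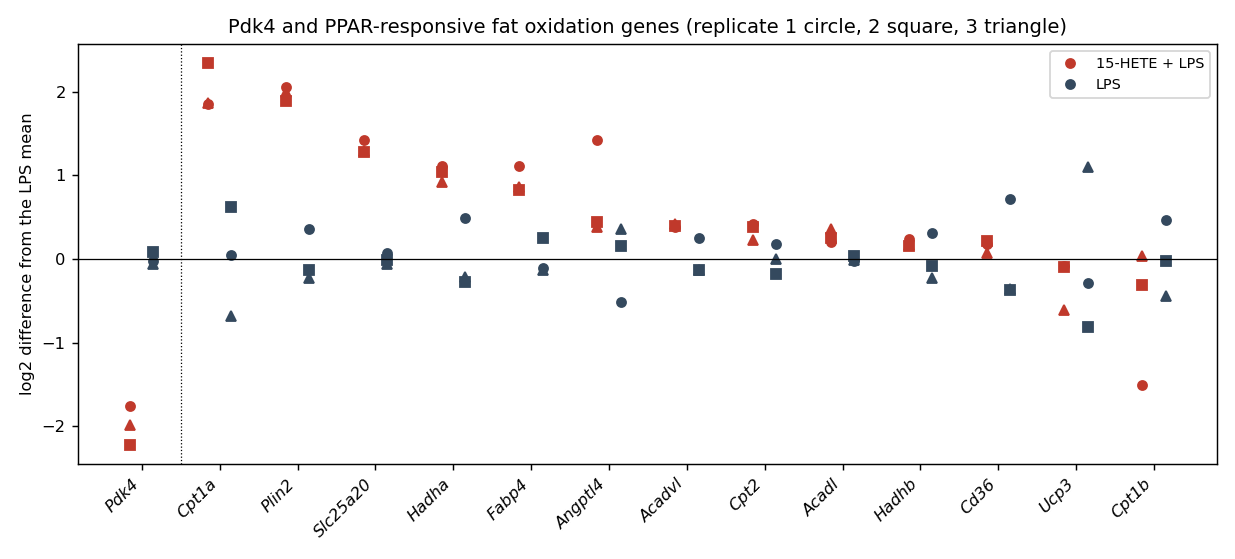
Log2 difference of each sample from the mean of the LPS samples, for Pdk4 (left of the dotted line) and 13 PPAR-responsive genes in order of their change, with 15-HETE + LPS left of LPS for each gene. Pdk4 was lower in all treated samples, while Plin2 (1.98) and Slc25a20 (1.33) were higher in all of them.

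HIF-responsive genes, the set to which Pdk1 belongs, had no common direction. Of 14 genes 11 were measured and 0 were called (2 higher and 1 lower at an unadjusted p under 0.05), with a median log2 fold change of -0.09, or 0.24 without LPS replicate 1. The hydroxylase Egln3 (2.26, adjusted p = 0.0677 from limma) and the glucose transporter Slc2a1 (1.24, adjusted p = 0.0960) had positive values, and the hexokinase Hk2 a negative one (-0.69, adjusted p = 0.135). All 3 were called, in those directions, once the trend was used. The LPS mean of Egln3 lay above only 6.89% of probes, so the size of its change is uncertain. Of 16 factors known to control transcription of the kinases 14 were measured and 0 were called (2 higher and 1 lower at an unadjusted p under 0.05). Both lists are read against 8.62% of all probes higher and 11.0% lower at that unadjusted p. Among the PPARs, Pparg had -1.14 (-1.59 to -0.79 with 1 sample left out), Ppara 0.49 and Ppard 0.02. For Pparg the groups overlapped: treated replicates 1 and 3 lay at -1.83 and -1.34 from the LPS mean. Treated replicate 2 lay at -0.23, within the LPS range of -0.56 to 0.69. The probes of Ppara and Ppard were dim in both groups. The oestrogen-related receptor Esrra, which acts on Pdk4 in muscle, had 0.54 (adjusted p = 0.163, 0.0190 with the intensity trend), the glucocorticoid receptor Nr3c1 0.68 (adjusted p = 0.126, 0.0478 with the intensity trend) and the coactivator Ppargc1a -0.50 (adjusted p = 0.228), a probe dim in both groups (above 1.09% of probes in 15-HETE + LPS cells and 10.5% in LPS cells).

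**Figure D4:**
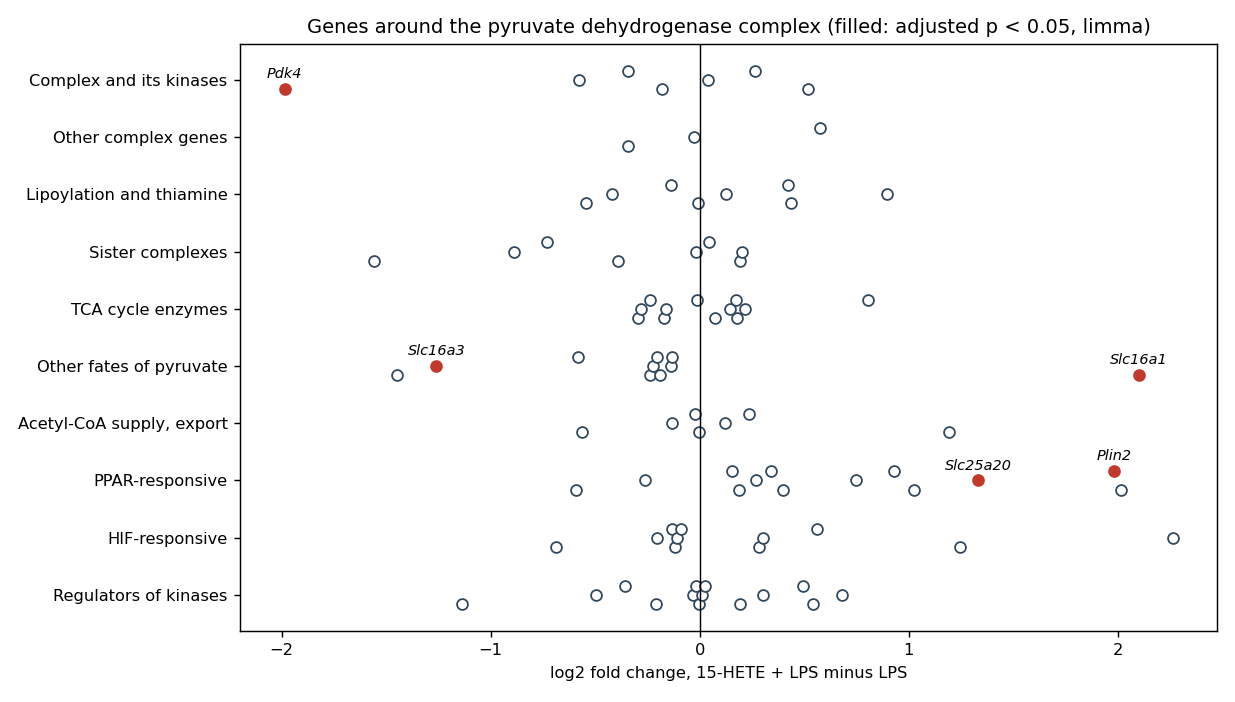
Log2 fold change, 15-HETE + LPS minus LPS, of each measured gene in the complex and in 9 lists of related genes, 1 point per gene (vertical offsets within a row only separate points). Filled points passed an adjusted p of 0.05 from limma: Pdk4 and Slc16a3 were lower, and Slc16a1, Plin2 and Slc25a20 were higher.

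The genes whose pattern over the 6 samples was most like that of Pdk4, by Pearson's r among 8903 probes with 1 symbol and above-median intensity, were Rhob, Trim32, Sgsm2, Topors and Rbm25 (r = 0.995 to 0.996). Rhob, a small GTPase of endosomes and the cytoskeleton, averaged 4001 in 15-HETE + LPS cells and 8737 in LPS cells (log2 fold change -1.13, adjusted p = 0.0526 from limma). The ubiquitin ligase Trim32 had -0.84 and the splicing factor Rbm25 -0.82. With 6 samples in 2 separate groups, 274 of these 8903 probes had an r over 0.95 and 62 an r over 0.98. Such values describe the difference between the groups more than any finer likeness.

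Across the array, log2 values correlated at 0.955 to 0.962 between 15-HETE + LPS samples, at 0.972 to 0.979 between LPS samples and at 0.943 to 0.962 between the groups (Pearson's r across probes, which are not independent replicates). The labels do not say which arrays were hybridised together, but the sample codes and record numbers of the groups fall in separate blocks, so each group may be an array set of its own. The treatment and a difference between such sets then cannot be told apart, which bears on every difference given here. Of 12 macrophage markers 9 were measured. Their summed intensity was 3685029 to 3819353 in 15-HETE + LPS cells and 2548832 to 3307154 in LPS cells. Most of this sum came from Lyz2, the brightest of them (log2 fold change 0.30), so it mainly follows that probe. All 9 had a positive log2 fold change, and Mrc1 (1.53) and Cd86 (1.70) were called higher, against 0.509% of all probes. For 12 measured markers of other cell types the sum was 14800 to 16841 in 15-HETE + LPS cells and 16246 to 19719 in LPS cells, and 0 were called. The part of these shifts in the results above was not tested. The number of arrays limits the precision.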

How the data were processed

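Total RNA of RAW 264.7 cells was measured on ABI mouse genome survey arrays, with 3 biological replicates per group. The deposited intensity values were read by the authors on a chemiluminescent analyzer, processed with its array software and quantile normalised, as the paper's methods state. Sorted values differed between arrays by at most 0.224%, and no value was missing, so the later filter of the authors on signal to noise and flags was not part of the table. Background correction is not given in the sources used here.

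Intensities were turned to log2. Probes were named by the platform annotation (14411 probes with 1 symbol, 247 with several, 18354 with none). All 33012 probes entered a limma fit (version 3.58.1, R 4.3.3, lmFit and eBayes, two-sided). Benjamini-Hochberg adjustment ran over the whole array, and an adjusted p under 0.05 was called. Robust fits used statmod 1.5.0. Single ratios were compared by exact permutation. Scripts were tested on simulated data. In each list a gene stood by its brightest probe. All measured members were named, and of each other list the genes called and up to 3 more with the lowest p. Ldha, Pparg, Ppara and Ppard were added after their values were seen. Pattern likeness was ranked by Pearson's r. The members and lists were chosen with earlier results of these data known. Alternatives were other priors and tests, centring, an offset of 100, a filter on dim probes, probe averaging, a replicate block, and the omission of each sample in turn.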

Additional observations from a re-analysis of the deposited data

How the results depend on the processing

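The count of genes called lower (1, Pdk4) fell to 0 with the methods' t-test and with the replicate block. Both called 0 probes of the whole array, the t-test being run on all probes without the paper's fold rule and filter. The count was 0 among probes above the median as well, where Pdk4 was not tested because its probe is dimmer. The replicate numbers did not pair the samples (correlation of same-numbered deviations -0.024 to 0.024), and with the replicate block Pdk4 kept a log2 fold change of -1.99 (adjusted p = 0.207 from limma). The count of genes called higher was 0, and 1 (Pdhb) with the intensity trend or at an unadjusted p under 0.05. With 1 sample left out, the fits with and without the intensity trend gave 0 to 2 genes higher and 0 to 2 lower, and the median log2 fold change ran from -0.35 to -0.0047. Over 22 alternatives Pdk4 was negative in 22, from -2.10 to -1.65, and over 23 alternatives each Pdk3 and Dld were negative in 23 and Pdha1 and Pdhb positive in 23. Several of these alternatives alter only the test or its variance and leave the estimate as it was. Median centring and repeated quantile normalization hardly altered it for Pdk4 (-1.99). With 1 sample left out, the trend fits repeat the estimates of the plain fits. These counts are therefore not that many separate checks of the direction. Without treated replicate 1 the sign reversed for Pdk1 (-0.0047) and Pdk2 (0.40), and with 1 sample left out they ran from -0.0047 to 0.089 and from -0.48 to 0.40. The ratio of Pdk4 to Pdha1 was -1.92 with the offset of 100, against -2.25. Centring on 8 housekeeping genes and the fits with the intensity trend and 1 sample left out were chosen after seeing the data. That centring gave Pdk4 -1.96 (adjusted p = 0.0299). Signal over background is not in the table, which limits what can be said of probes that were dim in a group, such as Pdk4 after 15-HETE.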

Other observations

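Ywhaz, a gene often taken as a constant reference, had 3 probes that differed. Its log2 fold changes after 15-HETE were -0.43, -0.22 and 0.91 in order of falling brightness, and none passed an adjusted p of 0.05 from limma. The dimmest of the 3 (0.91) was called with the intensity trend (adjusted p = 0.0161), and the brightest was -0.17 without LPS replicate 1. The members of the pyruvate dehydrogenase complex had a single probe each, so no such comparison between probes was possible for them.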
